A study of Homo sapiens with 30 samples.

Results

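The genes described here are subunits of the transcription factor NF-kappaB and targets that feed back on it or act downstream of it: NFKB1, NFKB2, RELB, NFKBIA, TNFAIP3, TRAF1, BIRC3, BCL2A1, TNFAIP2 and GCH1. They were taken by symbol, through the probe sets that the platform annotation gives to 1 of these genes alone. Of the 10 genes, 9 had such a probe set and all 9 were among the 10050 genes tested, out of 11963 with a probe set. BIRC3 was not analysed here. RNA came from THP-1, an established human line of acute monocytic leukaemia, and was measured on 30 Affymetrix arrays. All cultures, controls included, had first been made adherent and macrophage-like with 82 nM phorbol 12-myristate 13-acetate (PMA) for 24 h, then washed, scraped, replated and kept for 1 or 24 h. They received no particles (0 µg/ml, the control of each time), multi-walled carbon nanotubes (MWCNT, hollow carbon fibres) at 10 or 100 µg/ml, or TiO2-NB (titanium dioxide nanobelts, which are ribbon-shaped particles) at 10 or 100 µg/ml. That gave 10 groups of 3 arrays. PMA-treated THP-1 cells are a model of macrophages made from a single leukaemia line, and PMA itself activates protein kinase C, which feeds into NF-kappaB.

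NF-kappaB is a family of dimers of RELA, RELB, REL, NFKB1 and NFKB2. In resting cells inhibitors of the IkB family, such as the product of NFKBIA, hold the dimers in the cytoplasm. When receptors for TNF, interleukin 1 or microbial products signal, IkB kinases mark the inhibitor for destruction, and the freed dimers enter the nucleus and bind kappaB sites. Among the genes they switch on are their own inhibitor and other brakes, so the response limits itself, and in macrophages they drive much of the inflammatory programme.

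Binding-site letters are shown for 4 of the measured members, since these genes belong to the list as targets of the factor. Of them, NFKB1 and NFKB2 also encode its subunits. The RefSeq promoter table (GRCh38.p14) had an entry for 8 of the 10 members, with 13 starts in all. The 250 bases before each start were searched on both strands for a strict form of the kappaB site, which is GGG, then any 2 bases, then TTTCC, and for the looser kappaB consensus, which can overlap it. NFKB1, NFKB2, NFKBIA, TNFAIP3 and BIRC3, 5 of the 8, held the strict form at 1 or more of their starts. Counted by window, 6 of the 13 member windows held it, and the same 6 held the looser consensus. Among 35116 promoter windows of the same length 1.73% held the strict form and 9.96% the looser one. In NFKB1 the match lay 49 to 40 bases before the first listed start, and in NFKBIA 81 to 72 bases before it, on the opposite strand. Read on the strand of the motif, both were GGGAATTTCC. TNFAIP3 held 2 matches, which read GGGACTTTCC and GGGGATTTCC on that strand, and the letters GGGACTTTCC also stood before start 3 of NFKB2. The letters of BIRC3, which has no values here, and a looser match farther from start 3 of NFKB2 are not shown. A pair of looser matches in the window of start 2 of NFKB2 overlapped each other. No match was found in the windows of TRAF1, BCL2A1 and TNFAIP2. The windows run 5′ to 3′ on the strand of the gene, with matches to either form in capitals. They are NFKB1 at chr4:102501109-102501358 (+ strand), NFKBIA at chr14:35404750-35404999 (- strand), TNFAIP3 at chr6:137867188-137867217 (+ strand), and NFKB2 at chr10:102394461-102394490, chr10:102394490-102394519 and chr10:102395674-102395703 (all + strand). A match is a description of letters and does not show binding.
NFKB1: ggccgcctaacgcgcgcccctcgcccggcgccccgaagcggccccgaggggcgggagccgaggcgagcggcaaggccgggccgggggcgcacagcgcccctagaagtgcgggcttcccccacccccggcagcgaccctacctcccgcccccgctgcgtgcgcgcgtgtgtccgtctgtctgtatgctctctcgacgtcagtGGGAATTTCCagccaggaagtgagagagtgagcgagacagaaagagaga
NFKBIA: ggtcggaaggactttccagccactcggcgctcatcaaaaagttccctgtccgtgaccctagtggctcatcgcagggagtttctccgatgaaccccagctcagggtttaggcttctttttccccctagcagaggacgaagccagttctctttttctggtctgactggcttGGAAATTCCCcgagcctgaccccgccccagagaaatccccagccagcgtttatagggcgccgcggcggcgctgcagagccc
TNFAIP3: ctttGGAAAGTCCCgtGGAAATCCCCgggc
NFKB2, start 2, looser matches: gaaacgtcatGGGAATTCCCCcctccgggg
NFKB2, start 2, strict match: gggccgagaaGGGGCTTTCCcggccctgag
NFKB2, start 3: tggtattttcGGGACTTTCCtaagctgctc

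Values are log2 RMA intensities, in which 1 unit is a doubling. Array medians lay between 6.35 and 6.46, and the median SD of a gene within groups was 0.128. The labels call the 3 arrays of a group biological replicates, but nothing says that they came from separate cultures, so p-values measure the spread between these samples. Of the 8 measured monocyte and macrophage markers 7 lay above the array median on all 30 arrays, whereas lymphocyte, epithelial and fibroblast markers did so for 1 of 7 (NKG7), 0 of 6 and 1 of 6 (COL1A1). The group medians of these 4 lists ran from 8.94 to 9.44, 5.31 to 5.58, 3.70 to 3.94 and 5.13 to 5.52. In a bulk culture, fewer cells of a type and less RNA per cell cannot be told apart. A gene was called at a limma adjusted p under 0.05 over all genes tested, with the SD over 3 arrays given beside a mean level and the standard error of the fit beside a log2 difference.

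After 24 h with 100 µg/ml of either material 8 of the 9 measured members were higher than in the control of the same time, and none was lower. The member left out was NFKB2 in both cases, read from the brighter of its kept probe sets. Its other kept probe set was called higher with TiO2-NB, as given below. With MWCNT the median log2 difference of the members was 0.61, against -0.01 over all genes tested, and 13% of all genes were called, 8.99% as higher and 4.04% as lower. With TiO2-NB the median of the members was 0.71, against 0.01 over all genes, with 22.1% of all genes called, 10.9% as higher and 11.1% as lower. The arrays of these 8 members did not overlap the control arrays, which held for 17.1% of all genes on the higher side with MWCNT and 16.6% with TiO2-NB. Both comparisons use the same 3 control arrays. The members were chosen with earlier results of these data known. Their counts beside the shares of all genes are therefore descriptions and not a test of the list.

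**Figure D1:**
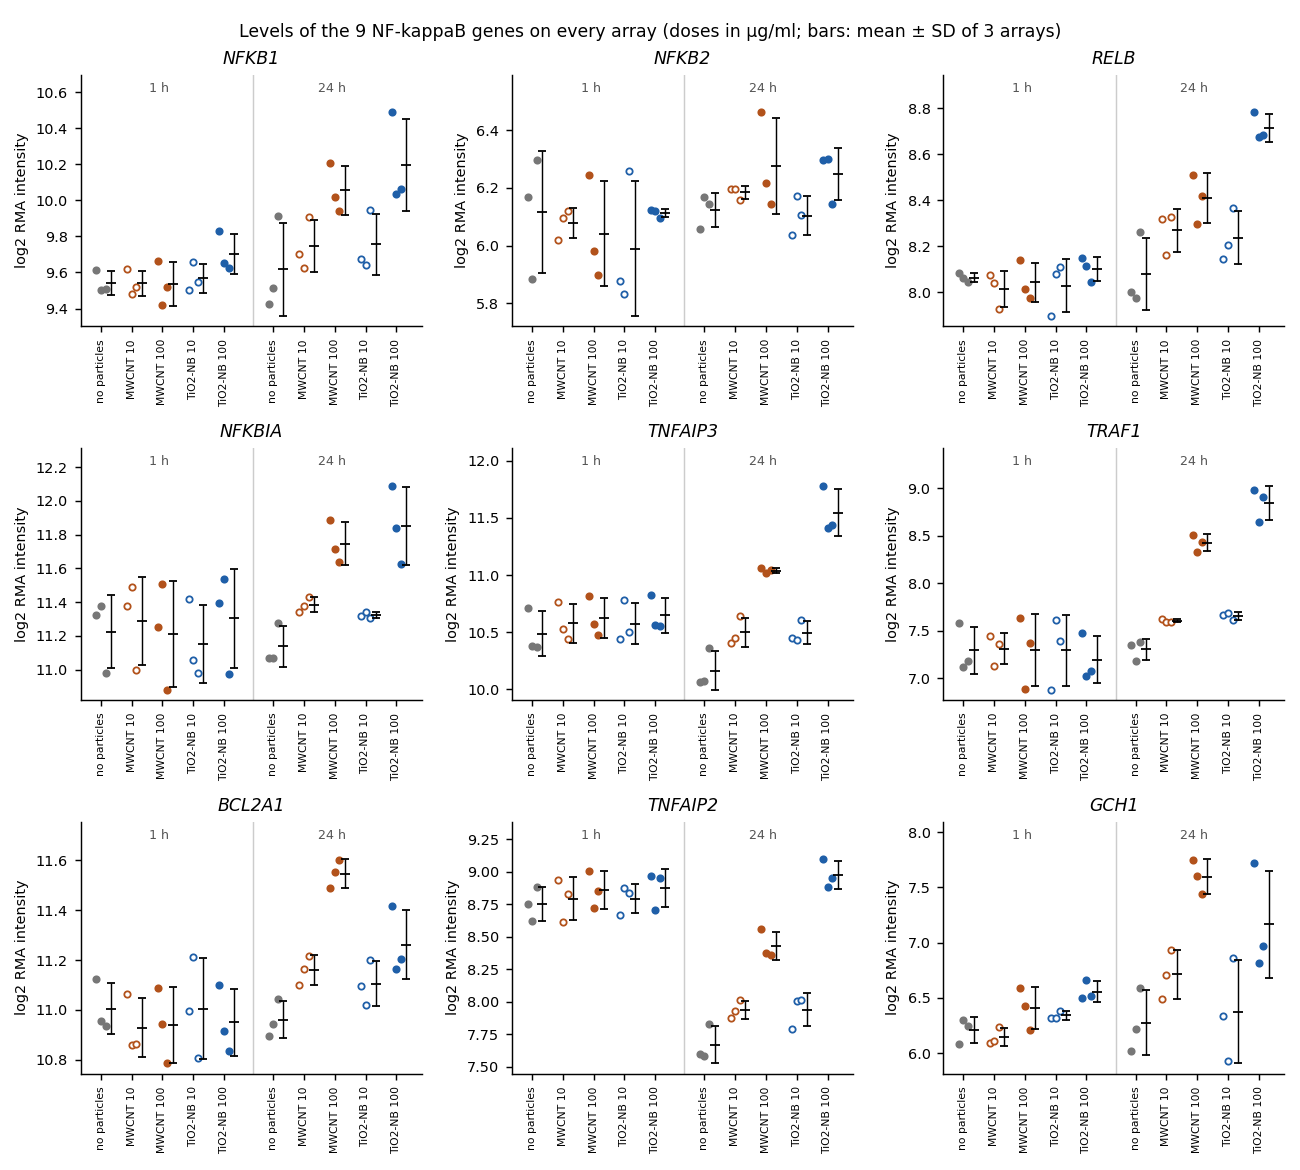
Log2 RMA intensity (vertical axes) of the 9 measured members on each array, by group along the horizontal axis, with 1 h on the left and 24 h on the right of each panel. Points are arrays and bars are means ± SD of 3 arrays. In every panel but that of NFKB2 the 100 µg/ml arrays of 24 h lie above the 24 h control arrays, and in the TNFAIP2 panel the 24 h control is the lowest group, at 7.67 ± 0.14.

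Among the subunits, NFKB1 encodes a precursor that is cut into a DNA-binding subunit and can itself hold dimers back. Its log2 level (probe set 209239_at) was 9.43, 9.51 and 9.91 in the 24 h control arrays, 10.21, 10.02 and 9.94 with 100 µg/ml MWCNT, and 10.49, 10.03 and 10.06 with 100 µg/ml TiO2-NB. The exposed arrays all lay above the control arrays, but replicate 3 of the control came close to the lowest MWCNT array. The log2 difference from control was 0.44 ± 0.12 with MWCNT (adjusted p = 0.0167) and 0.58 ± 0.12 with TiO2-NB (adjusted p = 0.0012). The MWCNT call was lost without replicate 1 or 2 of the control (adjusted p = 0.13 and 0.0694), without MWCNT replicate 1 (0.0921) and when only the groups compared were fitted (0.098), with adjusted p from 0.00181 to 0.13 over all alternatives. The TiO2-NB call was lost only when these groups alone were fitted (adjusted p = 0.0564, and 0.000137 to 0.0564 over all alternatives).

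RELB encodes the subunit that pairs with the NFKB2 product in the noncanonical branch of the pathway. Its log2 level (205205_at) was 8.0, 7.98 and 8.26 in the 24 h control arrays, 8.51, 8.30 and 8.42 with 100 µg/ml MWCNT and 8.78, 8.68 and 8.68 with 100 µg/ml TiO2-NB. The 3 groups did not overlap, with TiO2-NB highest and control replicate 3 close under the lowest MWCNT array. The log2 difference was 0.33 ± 0.08 with MWCNT (adjusted p = 0.00674) and 0.63 ± 0.08 with TiO2-NB (adjusted p = 3.06e-06). When only the groups compared were fitted, the MWCNT call was lost (adjusted p = 0.0914, and 0.00101 to 0.0914 over all alternatives).

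NFKB2 encodes the precursor of the noncanonical DNA-binding subunit, and its probe sets disagreed. The one that stood for the gene (207535_s_at) had log2 levels of 6.06, 6.17 and 6.14 in the 24 h control, 6.46, 6.22 and 6.14 with 100 µg/ml MWCNT and 6.30, 6.30 and 6.14 with 100 µg/ml TiO2-NB. The groups overlapped, and the log2 differences of 0.15 ± 0.11 (adjusted p = 0.407) and 0.12 ± 0.11 (adjusted p = 0.461) were not called. The other kept probe set (209636_at) read 5.71, 5.60 and 5.86 in the control and 6.13, 6.37 and 6.25 with TiO2-NB, with no overlap. In a fit of each probe set by itself that difference was 0.52 ± 0.11 (adjusted p = 0.0013), while with MWCNT it was 0.23 ± 0.11 (adjusted p = 0.207). With the mean of the kept probe sets in place of the brighter, NFKB2 was called for TiO2-NB (0.32 on the log2 scale, adjusted p = 0.00712, and 0.00712 to 0.658 over all alternatives). A probe set of this gene with a mean level of 2.78 (211524_at) did not pass the filter.

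NFKBIA encodes IkB alpha, the inhibitor that is destroyed on activation and resynthesised as the first feedback loop. Its log2 level (201502_s_at) was 11.07, 11.07 and 11.28 in the 24 h control arrays, 11.89, 11.71 and 11.64 with 100 µg/ml MWCNT, and 12.09, 11.84 and 11.63 with 100 µg/ml TiO2-NB. Every exposed array lay above every control array, and the exposed groups overlapped each other. The log2 difference was 0.61 ± 0.16 with MWCNT (adjusted p = 0.0116) and 0.71 ± 0.16 with TiO2-NB (adjusted p = 0.00207). Without control replicate 1 or MWCNT replicate 1 the MWCNT call was lost (adjusted p = 0.0561 and 0.0594, and 0.00273 to 0.0594 over all alternatives).

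TNFAIP3 encodes a ubiquitin-editing enzyme that shuts off signalling upstream of the IkB kinases. Its log2 level (202644_s_at) was 10.07, 10.07 and 10.36 in the 24 h control arrays, 11.06, 11.02 and 11.04 with 100 µg/ml MWCNT and 11.78, 11.42 and 11.44 with 100 µg/ml TiO2-NB. The 3 groups stood apart from each other, in that order. It rose by a log2 difference of 0.87 ± 0.12 with MWCNT (1.83-fold, adjusted p = 3.77e-05) and 1.38 ± 0.12 with TiO2-NB (2.60-fold, adjusted p = 1.85e-08). Its other probe set (202643_s_at) gave 1.01 ± 0.13 and 1.65 ± 0.13 in the fit of single probe sets.

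TRAF1 encodes an adaptor that binds TNF receptor complexes and is itself a target of the factor. Its log2 level (205599_at) was 7.35, 7.18 and 7.38 in the 24 h control arrays, 8.51, 8.33 and 8.43 with 100 µg/ml MWCNT and 8.99, 8.64 and 8.91 with 100 µg/ml TiO2-NB. These groups did not overlap. By the probe sets that stood for the genes, TRAF1 had the largest difference of the 9 members with TiO2-NB, 1.54 ± 0.17 (2.91-fold, adjusted p = 4.31e-07). The other probe set of TNFAIP3 gave a larger one. With MWCNT TRAF1 rose by 1.12 ± 0.17 (2.17-fold, adjusted p = 7.17e-05).

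BCL2A1 encodes a relative of BCL2 that protects cells from apoptosis. Its log2 level (205681_at) was 10.90, 10.94 and 11.04 in the 24 h control arrays, 11.49, 11.55 and 11.60 with 100 µg/ml MWCNT and 11.42, 11.16 and 11.20 with 100 µg/ml TiO2-NB. Here the MWCNT arrays were the highest, above all TiO2-NB arrays. The log2 difference was 0.59 ± 0.10 with MWCNT (adjusted p = 0.000194) and 0.30 ± 0.10 with TiO2-NB (adjusted p = 0.0279). The TiO2-NB call was lost without TiO2-NB replicate 1 (adjusted p = 0.153), without control replicate 1 or 2 (0.0942 and 0.0735) and when only the groups compared were fitted (0.0781), with 0.0172 to 0.153 over all alternatives.

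TNFAIP2 encodes a TNF-inducible protein of membrane protrusions and nanotubes between cells. Its log2 level (202510_s_at) was 7.59, 7.58 and 7.83 in the 24 h control arrays, 8.56, 8.37 and 8.36 with 100 µg/ml MWCNT and 9.10, 8.88 and 8.95 with 100 µg/ml TiO2-NB, again with no overlap. It rose by 0.76 ± 0.10 (1.70-fold, adjusted p = 2.09e-05) and by 1.31 ± 0.10 (2.48-fold, adjusted p = 2.26e-09). Its other kept probe set (202509_s_at), with a mean level of 5.69, gave -0.02 ± 0.12 and 0.23 ± 0.12 in the fit of single probe sets, and neither was called.

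GCH1 encodes the enzyme that starts the synthesis of tetrahydrobiopterin, a cofactor of nitric oxide synthase. Its log2 level (204224_s_at) was 6.02, 6.22 and 6.59 in the 24 h control arrays, 7.75, 7.61 and 7.44 with 100 µg/ml MWCNT and 7.72, 6.82 and 6.97 with 100 µg/ml TiO2-NB. Replicate 1 of TiO2-NB reached the MWCNT level while the other two arrays lay lower, and all exposed arrays lay above the control. GCH1 had the largest difference of the members with MWCNT, 1.32 ± 0.20 (2.50-fold, adjusted p = 6.57e-05), and rose by 0.89 ± 0.20 with TiO2-NB (1.85-fold, adjusted p = 0.00185).

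Some arrays stood high or low for most members at once. In the 24 h control, replicate 3 was the highest array for 8 of the 9 members. In both 100 µg/ml groups of 24 h, replicate 1 was the highest for 8 of 9. Without control replicate 3 all 8 calls with each material remained in number, and without replicate 1 of the exposed group 6 remained for MWCNT and 7 for TiO2-NB.

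At 10 µg/ml and 24 h no member was called by limma with either material (0 of 9 each, with 0% and 0.0199% of all genes called). An unadjusted p under 0.05 by limma was found for 4 and 2 of the 9 members, and for 421 and 474 of the 10050 genes. All 9 members lay above the control mean with MWCNT and 8 of 9 with TiO2-NB, against 5627 and 5131 of all genes. The medians were 0.25 and 0.16, against 0.01 and 0.002 over all genes. Both materials were compared with the same 3 control arrays. The MWCNT arrays of NFKBIA, TRAF1, TNFAIP3, BCL2A1 and TNFAIP2 all lay above the control arrays, 5 of 9 members against 4.65% of all genes on that side, and with TiO2-NB the same held for NFKBIA, TRAF1 and TNFAIP3, 3 of 9 against 4.71%. TRAF1 showed this most evenly, with log2 levels of 7.62, 7.60 and 7.60 with MWCNT and 7.66, 7.69 and 7.61 with TiO2-NB. Its differences from control were 0.30 ± 0.17 and 0.35 ± 0.17. GCH1 had the largest low-dose difference with MWCNT, 0.43 ± 0.20, but its arrays (6.49, 6.71 and 6.94) overlapped the control, and with TiO2-NB (6.34, 5.93 and 6.86) the difference was 0.10 ± 0.20.

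**Figure D2:**
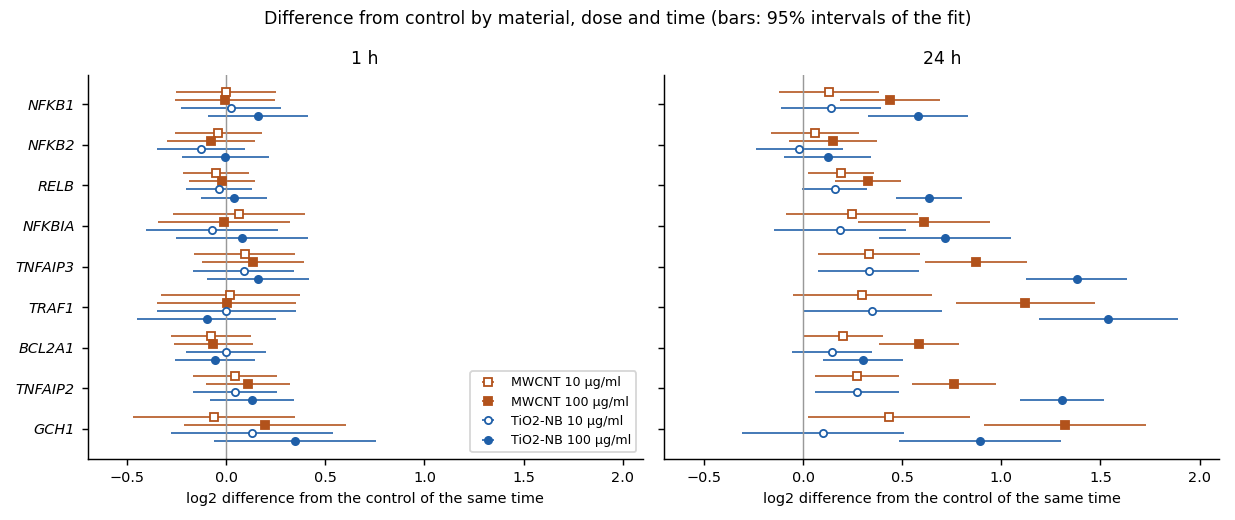
Log2 difference of each member from the control of the same time (horizontal axes) at 1 h and 24 h, by material and dose, with 95% intervals of the fit. At 1 h every interval includes 0. At 24 h the 100 µg/ml intervals exclude 0 for 8 of the 9 members, NFKB2 (brighter probe set) being the exception.

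At 1 h no member was called in any of the 4 exposures, and none had an unadjusted p under 0.05 by limma with the probe set that stood for the gene. The background was low as well, at 0% of all genes for both MWCNT doses and for 10 µg/ml TiO2-NB, and 1.15% for 100 µg/ml TiO2-NB. The largest 1 h difference of a member was that of GCH1 with 100 µg/ml TiO2-NB, whose arrays read 6.50, 6.66 and 6.51 against 6.08, 6.30 and 6.25 in the 1 h control. These did not overlap, and the log2 difference was 0.35 ± 0.20 (adjusted p = 0.41). NFKB1 was the other member whose arrays stood apart at this dose, 2 of 9 members against 11.6% of all genes on the higher side, with a difference of 0.16 ± 0.12 (adjusted p = 0.565). The other kept probe set of NFKB2 (209636_at) also stood above the control with this exposure, at 5.86, 5.82 and 5.82 against 5.67, 5.67 and 5.38, with a difference of 0.26 ± 0.11 (unadjusted p = 0.028, adjusted p = 0.252 by limma in the fit of single probe sets). For NFKBIA, a transcript known as an early target, the 1 h means lay between 11.15 and 11.30 and the arrays of all 5 groups overlapped, with replicate 3 at 10.98 in the control.

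The effect of dose was tested by setting 100 against 10 µg/ml of the same material. At 24 h, 5 members were higher at the higher dose of MWCNT, where 4.67% of all genes were called and 3.1% were higher, and 7 at the higher dose of TiO2-NB, where 13.5% were called and 7.38% were higher. With MWCNT these were TRAF1 (0.82 ± 0.17, adjusted p = 0.00543), TNFAIP2 (0.49 ± 0.10), TNFAIP3 (0.54 ± 0.12), BCL2A1 (0.39 ± 0.10) and GCH1 (0.89 ± 0.20), all as log2 differences. Without replicate 1 of 10 µg/ml MWCNT, 2 members remained called, TRAF1 and TNFAIP2, and without replicate 2 of that group 3 did. With TiO2-NB the members called were TRAF1 (1.19 ± 0.17), TNFAIP3 (1.05 ± 0.12), TNFAIP2 (1.04 ± 0.10), GCH1 (0.79 ± 0.20), NFKBIA (0.53 ± 0.16), RELB (0.48 ± 0.08) and NFKB1 (0.44 ± 0.12). The calls of RELB, TRAF1, TNFAIP3 and TNFAIP2 held under all 16 alternatives. Those of NFKBIA, NFKB1 and GCH1 were lost under 5, 4 and 3 of 16, with adjusted p up to 0.145, 0.136 and 0.149, and the arrays of GCH1 overlapped between the doses. All 3 were lost without replicate 2 of 10 µg/ml TiO2-NB and without replicate 1 of 100 µg/ml TiO2-NB. Without the latter the differences were 0.41 for NFKBIA, 0.29 for NFKB1 and 0.52 for GCH1. For TNFAIP2 the low-dose arrays read 7.79, 8.01 and 8.02 against 9.10, 8.88 and 8.95 at the high dose, so the doses were widely separated. BCL2A1 with TiO2-NB (0.16 ± 0.10, adjusted p = 0.351) and NFKB2 with either material (0.09 ± 0.11 with MWCNT and 0.14 ± 0.11 with TiO2-NB) were not called. With the mean of its kept probe sets NFKB2 was called between the doses of TiO2-NB (0.29, adjusted p = 0.0259, and 0.0259 to 0.685 over all alternatives). At 1 h no member differed between doses by limma (0 of 9 for each material, none at an unadjusted p under 0.05, with 0% and 0.0796% of all genes called).

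The materials were set against each other at equal dose and time, in 4 comparisons of each member. At 100 µg/ml and 24 h, MWCNT gave lower levels than TiO2-NB for 3 members and a higher level for 1, where 24.9% of all genes were called, 10.9% as lower and 14% as higher. TNFAIP2 differed by -0.55 ± 0.10 (95% interval -0.76 to -0.33, adjusted p = 0.000492) and TNFAIP3 by -0.51 ± 0.12 (-0.76 to -0.25, adjusted p = 0.00449). RELB differed by -0.31 ± 0.08 (-0.47 to -0.14, adjusted p = 0.00761). BCL2A1, the survival gene, went the other way, by 0.28 ± 0.10 (0.08 to 0.49, adjusted p = 0.0353).

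These differences were not equally firm. Those of TNFAIP2 and TNFAIP3 were called under all 16 alternatives tried. None of these alternatives read TNFAIP2 from its other kept probe set (202509_s_at) alone. That probe set read 5.46, 5.74 and 5.53 with MWCNT and 5.92, 5.88 and 5.68 with TiO2-NB, with overlap. The RELB difference was called under all but the fit without MWCNT replicate 2 (adjusted p = 0.0513, and 0.00224 to 0.0513 over all alternatives). The BCL2A1 difference was lost under 7 of 16, which were both ways of centring the arrays, the fit of these groups alone and leaving out replicate 2 or 3 of either group (adjusted p from 0.0152 to 0.141 over all 16). TRAF1 was lower with MWCNT by 0.42 ± 0.17 with no overlap of arrays, but it was not called in the fit of all arrays (interval -0.77 to -0.07, adjusted p = 0.0718) and was gained when only these groups were fitted or arrays were centred on the genes tested (adjusted p = 0.0331 and 0.0369, and 0.0331 to 0.189 over all alternatives). GCH1 was not called either, at 0.43 ± 0.20 (0.02 to 0.84, adjusted p = 0.114), and without TiO2-NB replicate 1, the array that stood high, its difference was 0.71 (adjusted p = 0.00826, and 0.00826 to 0.432 over all alternatives). For NFKB1 (-0.14, interval -0.39 to 0.11), NFKBIA (-0.11, -0.44 to 0.23) and NFKB2 (0.03, -0.19 to 0.25) the intervals include 0 and leave room for differences either way. The NFKB2 value is that of its brighter probe set. Its other kept probe set (209636_at) read 6.06, 5.98 and 5.84 with MWCNT and 6.13, 6.37 and 6.25 with TiO2-NB, without overlap. At 10 µg/ml and at 1 h no member was called between the materials by limma, and none had an unadjusted p under 0.05 (0 of 9 in each of 3 comparisons, against 0.00995% of all genes at 10 µg/ml and 24 h, 1.42% at 100 µg/ml and 1 h, and 0% at 10 µg/ml and 1 h).

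**Figure D3:**
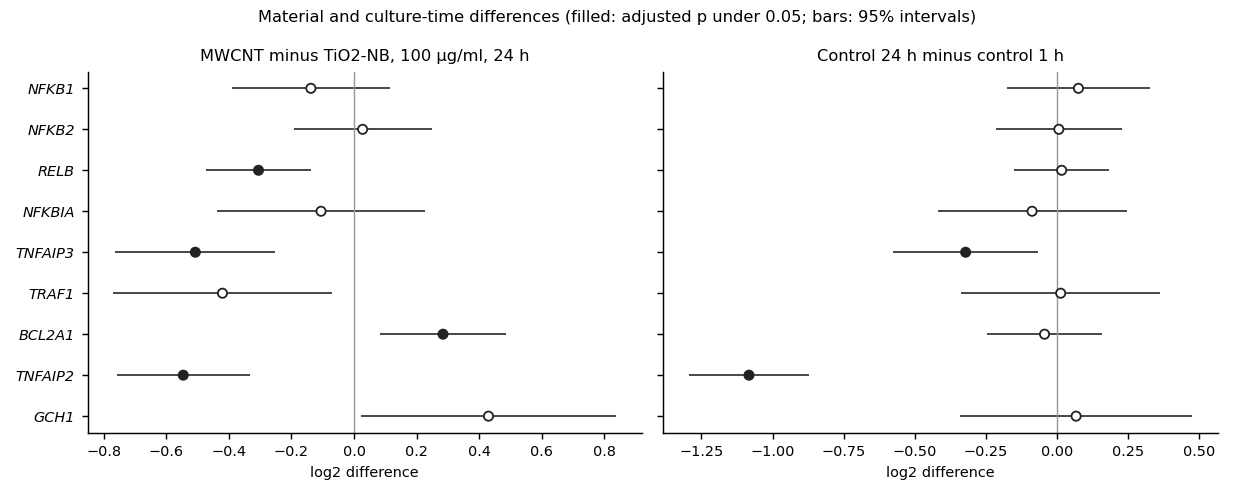
Log2 difference of each member between the materials at 100 µg/ml and 24 h (left, MWCNT minus TiO2-NB) and between the controls (right, 24 h minus 1 h), with 95% intervals of the fit. Filled points have an adjusted p under 0.05: RELB, TNFAIP3, TNFAIP2 and BCL2A1 on the left, and TNFAIP3 and TNFAIP2 on the right.

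Without particles 2 members were called between the controls, both lower at 24 h than at 1 h. Of all genes 36.9% were called in that comparison, 16.1% as lower. Time in culture, time since PMA and time since washing and replating cannot be told apart here. TNFAIP2 read 8.75, 8.62 and 8.88 at 1 h and 7.59, 7.58 and 7.83 at 24 h. The control arrays of the 2 times were far apart, with a log2 difference of -1.08 ± 0.10 (adjusted p = 8.48e-09). TNFAIP3 read 10.71, 10.38 and 10.37 at 1 h and 10.07, 10.07 and 10.36 at 24 h, so that replicate 3 at 24 h nearly reached the 1 h arrays. Its difference was -0.32 ± 0.12 (adjusted p = 0.0444), and it was lost under 6 of 16 alternatives, among them the fits without 1 h replicate 1 (adjusted p = 0.254) and without 24 h replicate 1 or 2 (0.147 and 0.142), with 0.00925 to 0.254 over all 16. The other probe set of TNFAIP3 gave -0.52 ± 0.13 (adjusted p = 0.00296 in the fit of single probe sets), and that of TNFAIP2 gave -0.17 ± 0.12 (adjusted p = 0.277). The remaining 7 members differed between the controls by -0.09 to 0.08.

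Because of this fall the order of groups differed for TNFAIP2. Its mean at 24 h with 100 µg/ml TiO2-NB, 8.98 ± 0.11, lay just above those of the 5 groups of 1 h, between 8.75 and 8.88, with arrays that overlapped 4 of these groups, and its mean with 100 µg/ml MWCNT, 8.43 ± 0.11, lay below all of them. For NFKB1, RELB, NFKBIA, TRAF1 and TNFAIP3 the highest mean was that with 100 µg/ml TiO2-NB at 24 h, followed by that with 100 µg/ml MWCNT. For BCL2A1, GCH1 and the brighter probe set of NFKB2 the MWCNT group came first. By the other kept probe set of NFKB2 (209636_at) TiO2-NB came first, at 6.25 ± 0.12 against 5.96 ± 0.11 with MWCNT. Below these groups most neighbours in the order did not differ beyond their spread. For TRAF1 the other 24 h exposures, at 7.65 ± 0.04 and 7.60 ± 0.01, had means above those of the 6 remaining groups, between 7.19 and 7.31, although single 1 h arrays reached 7.63. For NFKBIA the means of the low-dose 24 h groups, 11.39 ± 0.04 with MWCNT and 11.32 ± 0.02 with TiO2-NB, lay within the range of the 1 h arrays.

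Whether the response to 100 µg/ml differed between the times was tested as the difference from control at 24 h minus that at 1 h. With MWCNT 5 members had a larger difference at 24 h, where 3.71% of all genes were called and 2.64% were larger, and with TiO2-NB 4 did, where 16.3% were called and 7.49% were larger. TRAF1 was called for both, with 1.12 ± 0.24 for MWCNT (adjusted p = 0.00908) and 1.64 ± 0.24 for TiO2-NB. TNFAIP3 (0.74 ± 0.18 and 1.22 ± 0.18) and TNFAIP2 (0.65 ± 0.15 and 1.18 ± 0.15) were called for both as well. BCL2A1 (0.65 ± 0.14) and GCH1 (1.12 ± 0.28) were called for MWCNT, and RELB (0.59 ± 0.11) for TiO2-NB. The 24 h control enters these values, so the fall of TNFAIP2 and TNFAIP3 in the control is part of them. The called MWCNT value of TNFAIP2 became 0.27 (adjusted p = 0.266) with the mean of its probe sets, and over all 22 alternatives its adjusted p ran from 0.00547 to 0.266. For MWCNT the count was 3 without 24 h control replicate 1 or without replicate 3 of 100 µg/ml MWCNT at 1 h.

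Of the other genes of the pathway, 60 were tested, listed by role as subunits, inhibitors, kinases, receptors and adaptors, negative regulators, survival targets and other induced targets. These lists were also chosen with earlier results of these data known, so their counts are descriptions. After 24 h with 100 µg/ml, 20 rose and 3 fell with MWCNT, with a median log2 difference of 0.16, against -0.01 over all genes. With TiO2-NB 29 rose and 1 fell, with a median of 0.28, against 0.01 over all genes. Of all genes, 13% were called with MWCNT, 8.99% as higher and 4.04% as lower. With TiO2-NB 22.1% were called, 10.9% as higher and 11.1% as lower. None of the 60 was called at 10 µg/ml and 24 h by limma, where 0% and 0.0199% of all genes were called. An unadjusted p under 0.05 by limma was seen for 7 and 9 of the 60, and for 421 and 474 of the 10050 genes. Between the materials at 100 µg/ml and 24 h, 1 was higher and 20 were lower with MWCNT, with a median of -0.18 against -0.02 over all genes. In that comparison 24.9% of all genes were called, 14% as higher and 10.9% as lower. Between the controls 14 were higher and 19 lower at 24 h, which is 33 of 60. Of the 10050 genes tested 36.9% were called there, 2087 as higher and 1621 (16.1%) as lower.

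Of the 2 subunits outside the list of members, both rose with TiO2-NB and 1 rose with MWCNT, where 10.9% and 8.99% of all genes were higher. RELA, the main activating subunit, rose by 0.63 ± 0.08 with TiO2-NB and read 0.11 ± 0.08 with MWCNT (adjusted p = 0.414), and the materials differed by -0.52 ± 0.08 (adjusted p = 4.1e-05). REL, the subunit prominent in blood cells, rose by 0.53 ± 0.13 with MWCNT and 0.73 ± 0.13 with TiO2-NB, and the difference between materials was not called (-0.20 ± 0.13, adjusted p = 0.27). Of the inhibitors, NFKBIB rose with TiO2-NB (0.45 ± 0.07) and was not called with MWCNT (0.19 ± 0.07, adjusted p = 0.0713), and NFKBIE was called with neither (0.22 ± 0.11 and 0.17 ± 0.11). BCL3 was not analysed here.

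Of 11 kinases and their partners tested, 1 rose with MWCNT and 2 with TiO2-NB, where 8.99% and 10.9% of all genes were called higher. The differences of all 11 ran from -0.37 to 0.34 and from -0.10 to 0.37. CHUK, the alpha subunit of the IkB kinase, rose by 0.34 ± 0.09 and 0.27 ± 0.09, and TANK, a partner of kinases of this family, by 0.37 ± 0.13 with TiO2-NB. IKBKB, the beta subunit (-0.02 ± 0.08 and 0.02 ± 0.08), and IKBKG, the scaffold of the complex (-0.11 ± 0.06 and 0.11 ± 0.06), were called with neither. Of 16 receptors and adaptors 4 rose and 2 fell with MWCNT, and 6 rose and 1 fell with TiO2-NB. Beside the shares of higher genes just given, 4.04% and 11.1% of all genes were called lower. RIPK2, the kinase adaptor of NOD receptors, rose by 0.82 ± 0.07 and 0.86 ± 0.07. CD40, the receptor that engages both branches, rose by 0.44 ± 0.15 and 0.90 ± 0.15. The differences of all 16 ran from -0.46 to 0.82 with MWCNT and from -0.43 to 0.90 with TiO2-NB. Those that fell are not named here.

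Of 9 negative regulators 4 rose and 1 fell with MWCNT and 5 rose with TiO2-NB. The differences of all 9 ran from -0.26 to 1.32 and from 0.01 to 0.98. The shares of all genes, for this list and those below, were 8.99% and 10.9% called higher and 4.04% and 11.1% called lower. Among the regulators that rose were IRAK3, which blocks Toll-like receptor signalling (1.32 ± 0.17 and 0.95 ± 0.17), TNIP1, a partner of TNFAIP3 (0.72 ± 0.08 and 0.73 ± 0.08), and CYLD, a deubiquitinase (0.38 ± 0.11 and 0.98 ± 0.11). Of 5 survival targets CFLAR, an inhibitor of caspase activation, rose with both (0.72 ± 0.13 and 1.08 ± 0.13), and with TiO2-NB 3 rose, led by GADD45B (1.50 ± 0.32, against 0.61 ± 0.32 with MWCNT, adjusted p = 0.24). Of 15 other induced targets 9 rose with MWCNT and 10 with TiO2-NB, and the largest were TNFAIP6 (2.92 ± 0.40 and 2.65 ± 0.40) and the chemokine CCL4 (2.39 ± 0.23 and 2.85 ± 0.23).

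**Figure D4:**
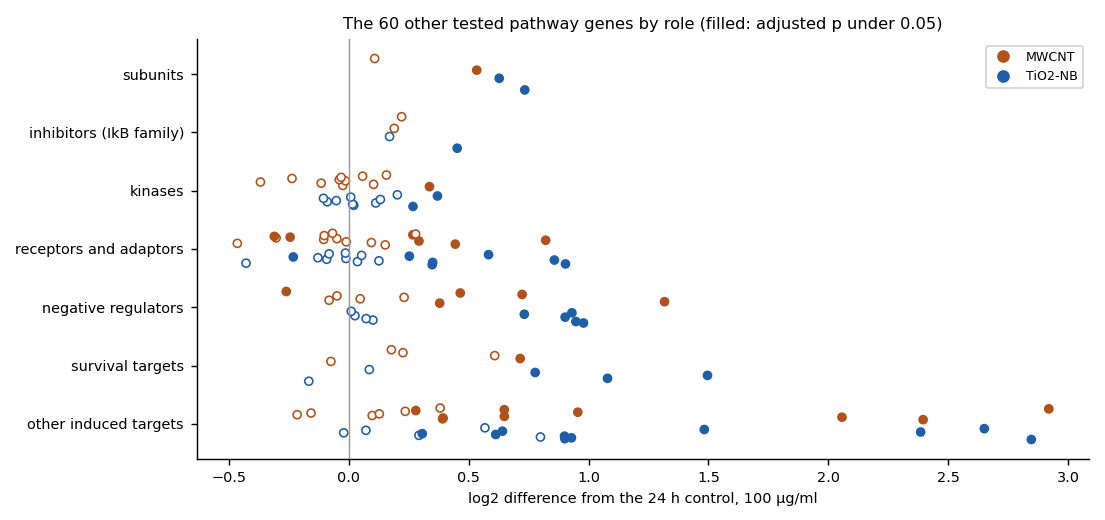
Log2 difference from the 24 h control at 100 µg/ml (horizontal axis) of the 60 other tested pathway genes, in rows by role, with MWCNT and TiO2-NB in separate colours and filled points for an adjusted p under 0.05. Kinases lie between -0.37 and 0.37, and the highest points are those of other induced targets, up to 2.92.

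Across the 10 group means the members varied together, except for TNFAIP2. Over the 28 pairs of members without TNFAIP2, Pearson's r ran from 0.61 to 0.97, and over its 8 pairs with the others from -0.17 to 0.54. These are descriptions over 10 groups that share controls and arrays, and the high-dose groups of 24 h set much of the range. The tested genes whose group means most resembled the mean standardised profile of the members, among 1019 that spanned at least 1 log2 unit, were MGLL (r = 0.995), VEGFC (0.993), IL32 (0.967), CHST2 (0.964), DUSP1 (0.961), BCAT1 (0.958), ICAM1 (0.942) and CCL2 (0.935). For single members the closest was BCAT1 for NFKB1 (0.988), SULT1C2 for NFKB2 (0.903), TNF for RELB (0.986), MGLL for NFKBIA (0.994) and TRAF1 (0.976), NAV3 for TNFAIP3 (0.979), CRTAM for BCL2A1 (0.984) and GCH1 (0.970), and CTSK for TNFAIP2 (0.996).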

How the data were processed

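The deposited table holds log2 probe set intensities that the authors made by RMA (background correction, normalization between arrays and summary of probes), per the submitters' processing notes. Its version, and a genome build for the probe sets, are not given in the sources used here. The values were used as deposited. Of 22277 probe sets, 62 were controls, and of the rest 19064 mapped to 1 gene, 1043 to several and 2108 to none in the platform annotation. Probe sets of 1 gene were kept if 3 or more arrays had them over their 25th percentile (15309), and each gene was read from the brightest of its kept probe sets on average, giving 10050 genes. All 30 arrays were fitted in R 4.3.3 with limma 3.58.1, as 10 group means, leaving 20 residual degrees of freedom. Two-sided p-values were adjusted by the Benjamini-Hochberg method over all genes within each of 19 comparisons, and a gene was called under 0.05. The fit was tested on simulated data. Alternatives changed the filter, normalization, probe set rule, arrays fitted, replicate block and prior. Arrays have no depth in reads, so precision is set by how many there are. The members and the pathway lists were chosen with earlier results of these data known. Beside the members, the text names fixed core genes of the pathway, up to 2 called genes per role with the largest change in each 100 µg/ml comparison with control at 24 h, and the genes most like the members.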

Additional observations from a re-analysis of the deposited data

Results flagged for a closer look

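The response of 6 members to 100 µg/ml differed between the times with 1 or both materials. The test was of the change from control at 24 h minus the change at 1 h. With MWCNT 5 of 9 members were called, where 3.71% of all genes were called and 2.64% were larger. With TiO2-NB 4 of 9 were called, where 16.3% of all genes were called and 7.49% were larger. With MWCNT the differences of log2 responses were 1.12 for TRAF1, 0.74 for TNFAIP3, 0.65 for BCL2A1, 0.65 for TNFAIP2 and 1.12 for GCH1. With TiO2-NB they were 1.64 for TRAF1, 1.22 for TNFAIP3, 1.18 for TNFAIP2 and 0.59 for RELB. All were larger at 24 h. Of these, TRAF1 and BCL2A1 with MWCNT and all 4 with TiO2-NB were called under all 22 alternatives tried. No alternative read TNFAIP2 from its other kept probe set alone. TNFAIP3 with MWCNT was lost under 5 of 22 (adjusted p from 0.00767 to 0.068 over all of them) and GCH1 with MWCNT under 6 (0.00973 to 0.0876). TNFAIP2 with MWCNT was lost under 2 (adjusted p by limma from 0.00547 to 0.266). The controls enter these values, and for TNFAIP2 the 24 h control differed from the 1 h control by -1.08.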

How the results depend on the processing

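No called difference of a member reversed its sign under the alternatives tried. Members called between the controls numbered 1 in place of 2 with no filter, with array medians centred and with only the groups compared. The MWCNT response difference had 3 in place of 5 with only the groups compared, and that of TiO2-NB had 7 in place of 4 with arrays centred on the median of the genes tested, an alternative chosen after seeing the data. Leaving out 1 array at a time gave 6 to 8 members for 100 µg/ml MWCNT and 7 to 8 for TiO2-NB at 24 h, 2 to 5 between the materials, 2 to 5 and 4 to 7 between doses of MWCNT and TiO2-NB, 1 to 2 between the controls, and 3 to 7 and 4 to 5 for the response differences. The replicate numbers did not pair the arrays throughout: of 60 equally numbered pairs 38 correlated above 0.1 and 21 negatively (-0.53 to 0.73), and 20 of 30 arrays correlated best with their own number. With the numbers as a replicate block the counts were 8 and 8 for both materials at 100 µg/ml and 24 h, and the TiO2-NB response difference had 5, NFKBIA being added (adjusted p = 0.0223, and 0.0223 to 0.167 over all alternatives). The block changed no other call of a member.

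Counts over all genes moved more. They ran from 778 (without control replicate 1) to 1688 for 100 µg/ml MWCNT at 24 h (1309), from 1304 to 3377 for TiO2-NB (2219), from 197 to 535 and 710 to 1973 for the doses of MWCNT (469) and TiO2-NB (1355), from 152 to 483 and 1019 to 2408 for the response differences (373 and 1642), from 0 to 297 for 100 µg/ml TiO2-NB at 1 h (116) and from 0 to 15 for 10 µg/ml TiO2-NB at 24 h (2). Centred on the genes tested, the higher share of calls was 49.8% in place of 69% for 100 µg/ml MWCNT at 24 h, 39% in place of 56.3% between the materials, 69.1% in place of 45.9% for the TiO2-NB response difference and 2.02% in place of 19% for 100 µg/ml TiO2-NB at 1 h.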
